A study of Homo sapiens with 4 samples.

Results

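A set of 10 genes of the trophectoderm and the Hippo pathway was examined for chromatin occupancy by OGA, the enzyme that takes O-linked N-acetylglucosamine off nuclear and cytosolic proteins. They were chosen by name: the DNA-binding factors TEAD4 and TEAD1, the coactivators YAP1 and WWTR1, the trophoblast transcription factors CDX2, GATA3, ELF5 and TP63, and the keratins KRT8 and KRT18. Every region that the authors assigned to one of these 10 genes was taken. This gave 0 of the 1334 regions in the list from OGA knockdown cells and 15 of the 8977 in the list from control cells. The cells were H9, an established human embryonic stem cell line, in naive culture on mouse embryonic fibroblast feeders. The medium, PXGL, held the MEK inhibitor PD0325901, the tankyrase inhibitor XAV939, the protein kinase C inhibitor Gö 6983 and human LIF, and both groups shared it. The first group carried the genotype OGA knockdown (called shOGA) and the controls were WT (called ctrl), with 2 libraries each. It is not stated whether the controls carried a hairpin or whether replicates were separate cultures. The assay was CUT&Tag, in which an antibody, here against OGA, guides a transposase that cuts and tags the DNA nearby.

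Trophectoderm is the outer layer of the blastocyst and the founder of the placenta, and human naive stem cells, unlike most primed ones, can readily be turned into it. In the Hippo pathway, upstream kinases keep YAP1 and WWTR1 (also called TAZ) out of the nucleus. Where the kinases are off, as in the outer cells of the mouse embryo, the coactivators enter and bind TEAD4, which switches on trophectoderm genes such as Cdx2 and Gata3. TEAD proteins cannot activate well without such a partner. KRT8 and KRT18 form the paired filaments of simple epithelia and are early proteins of the trophectoderm.

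Each group had 1 deposited list of regions, and each region in it named numbered peaks of both replicates. The lists gave positions, widths and annotations but no counts, so the depth was unknown, the knockdown of OGA could not be checked, and nothing could be tested between libraries. The median width was 727 bp in the shOGA list and 1577 bp in the ctrl list. Of 5 naive markers, 3 had a region in the shOGA list and 4 in the ctrl list, while 0 of 7 fibroblast markers had one in either. Over all protein-coding genes the shares were 3.99% and 21.7%, so little can be read from 0 of 7. The fibroblast markers were human genes and mouse feeder DNA may not align, so this count cannot show whether feeder cells were present.

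In the knockdown list 0 of the 10 genes had an assigned region, and in the control list 6 had one. TEAD4 held 9 of the 15 control regions, WWTR1 held 2, and TEAD1, ELF5, TP63 and KRT8 held 1 each. YAP1, KRT18, GATA3 and CDX2 had no region assigned in either list. The genes were picked with this in view, so nothing is read from 6 of 10. Over all protein-coding genes 3.99% had a region in the shOGA list and 21.7% in the ctrl list, so a count of 0 among 10 genes is near the knockdown background. Of the 15 control regions 0 were overlapped by a knockdown region by at least 1 bp, against 10.0% of all control regions. A count of 0 of 15 allows a share of up to 20.0%, which includes that background, and regions of 1 gene are not independent. At a list this short, a loss at these genes in particular was not detectable.

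The control regions of these genes were mostly inside genes and away from start sites. Of the 15, 12 were intronic, 2 were of the promoter class (within 3 kb of a start site) and 1 was distal intergenic. By gene, 0 of the 10 had a promoter-class region in the shOGA list and 2, TEAD4 and KRT8, in the ctrl list, beside 2.05% and 14.9% of protein-coding genes. Over the whole control list 22.6% of regions were intronic and 46.9% of the promoter class. TEAD4 alone gave 7 of the 12 intronic regions, and regions of 1 gene are not independent. Every region assigned to TEAD1, WWTR1, ELF5 and TP63 was intronic as well. A single region of the 15, that of KRT8, contained a start site. Of the 15, 9 were wider than the median of the list.

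**Figure D1:**
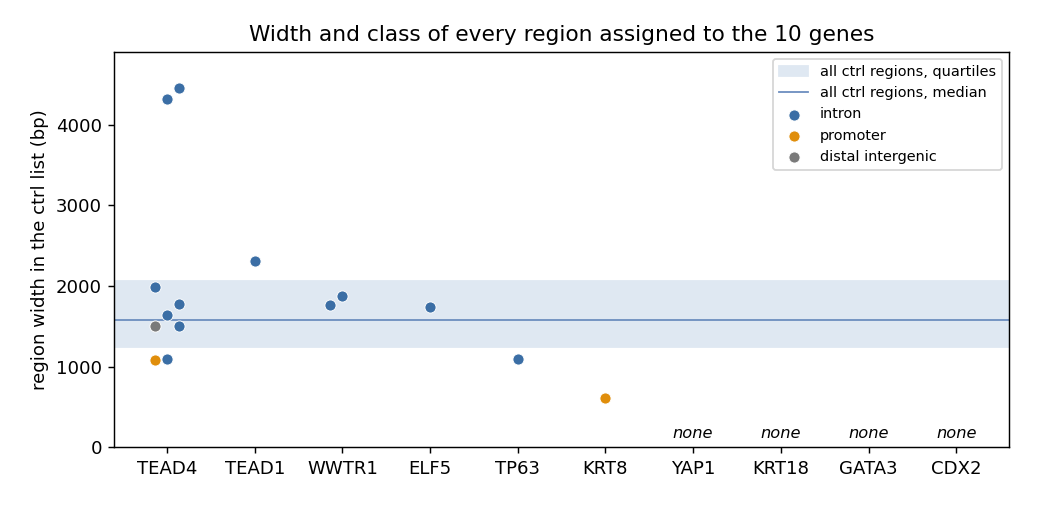
Width in bp (vertical axis) of every region assigned to the 10 genes in the ctrl list, 1 point per region, coloured by the authors' class, with the median and quartiles of all 8977 ctrl regions as line and band. TEAD4 has the 2 widest regions (4451 and 4315 bp), KRT8 the narrowest (604 bp), and 4 genes have none; the shOGA list has no region assigned to any of the 10.

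TEAD4, the TEAD factor that mouse embryos need to make trophectoderm, carried the series of regions. On chromosome 12 (GRCh38) the series began upstream of the gene with a distal intergenic region at 2946762 to 2948269 (1508 bp), 11128 bp before the start of transcript NM_003213.4. The first region in the gene lay at 2961077 to 2962159 (1083 bp) and began 1142 bp after the start of transcript NM_201443.3, at 2959935. It was the gene's only promoter-class region, and no listed region covered either of these start sites.

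A run of 6 regions followed in intron 2 of 12. These covered 2963226 to 2965210 (1985 bp), 2969927 to 2971565 (1639 bp), 2973916 to 2978366 (4451 bp), 2980968 to 2985282 (4315 bp), 2985587 to 2986684 (1098 bp) and 2988001 to 2989506 (1506 bp). The last region stood alone in intron 3, at 2999885 to 3001665 (1781 bp). Beyond it the remaining 39.0 kb of the gene held no control region. The regions thus lay in the 5′ part of the gene, which is 81.3 kb long.

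The 2 wide regions in intron 2 stood out in size as well. The 4451 bp region was at least as wide as 98.9% of control regions, and it joined 2 peaks of replicate 1 with 1 of replicate 2. The 4315 bp region reached 98.8% with a single peak from each replicate. The promoter-class region and the 1098 bp region were narrow by comparison, at 14.4% and 15.2% of the list. Gaps between neighbours ran between 304 and 12807 bp, and the regions covered 35.3% of the 54.9 kb from first to last.

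**Figure D2:**
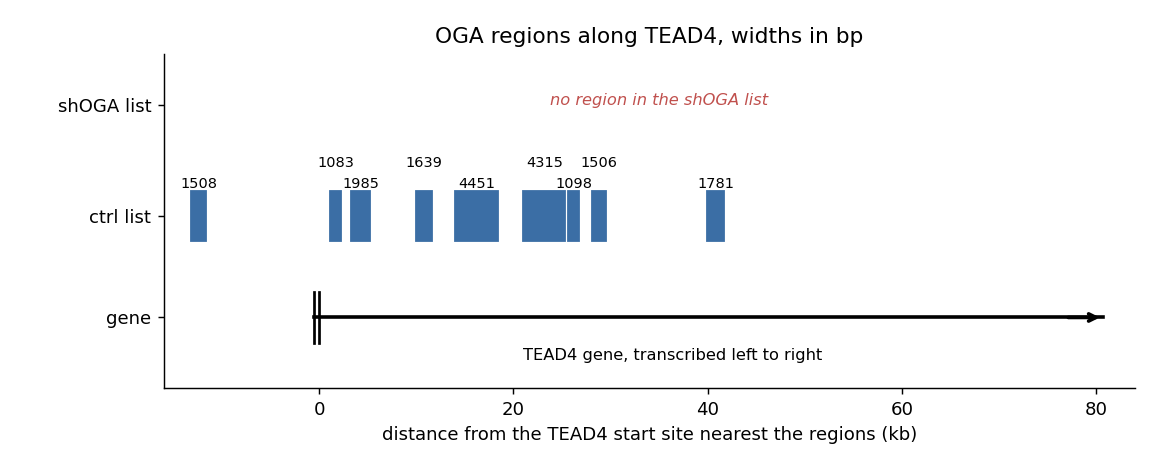
Map of the regions at TEAD4: the horizontal axis is the distance in kb from the start of transcript NM_201443.3, boxes are the 9 regions of the ctrl list with widths in bp, and the line is the gene with both start sites as ticks. Of the 9, 1 lies upstream and 8 in the 5′ part of the gene, none covers a start site, and the shOGA row is empty.

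Few genes had as many regions. Of 6510 genes in the control list 0.123% had at least 9, namely 8 genes with TEAD4 among them, and the median was 1. SUMO1P1, A4GALT and CECR2 had 10. By base pairs covered (19366 bp) TEAD4 ranked 8th of all genes. The genes of the set were chosen with earlier results of these data known, so nothing is read from either rank. Of the 12 other genes with at least 8 control regions, 10 had a region in the knockdown list, and 24 of their 106 control regions were overlapped by one (22.6%). TEAD4 had 0 of 9 and JARID2 0 of 8, and the difference was not tested. The closest knockdown region to the TEAD4 series was assigned to ITFG2, 133838 bp before its first region.

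The peak numbers in the lists gave a view of single libraries. Numbers rose with position at every step along a chromosome, so a number skipped between neighbouring regions marks a peak that no listed region names; this supposes that numbering has no holes. From the first to the last TEAD4 region the ctrl replicates differed. Replicate 1 had 10 peaks and skipped 0, whereas replicate 2 had 9 peaks in regions and skipped 5. Of the 5, 3 lay between the upstream region and the promoter-class region, the 12807 bp that hold the start sites. A peak over a TEAD4 start site is therefore possible in ctrl replicate 2 and not in replicate 1, as far as numbers tell. Downstream, between the last TEAD4 region and the next region at TSPAN9, 3 peaks were skipped in replicate 1 and 17 in replicate 2.

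Knockdown libraries had peaks around TEAD4 too, although none was listed. Between the knockdown regions at ITFG2 and GAU1, 1.9 Mb apart and on either side of TEAD4, shOGA replicates 1 and 2 had 13 and 15 peaks, and 0 of them entered a region. In the same interval the ctrl replicates had 43 to 48 and 80 to 87 peaks, with 22 listed regions. Both knockdown counts lay below both control ranges. The interval ends at the nearest knockdown regions on either side, so the 0 listed inside follows from how it was set. This choice can also favour low knockdown counts, so nothing is read from the difference. The highest peak numbers over the genome were 14203 and 13946 in shOGA and 24287 and 28210 in ctrl, so knockdown libraries had the lower numbers over the genome as well. Where in the interval the knockdown peaks lay is not recorded, and whether depth played a part was not tested.

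**Figure D3:**
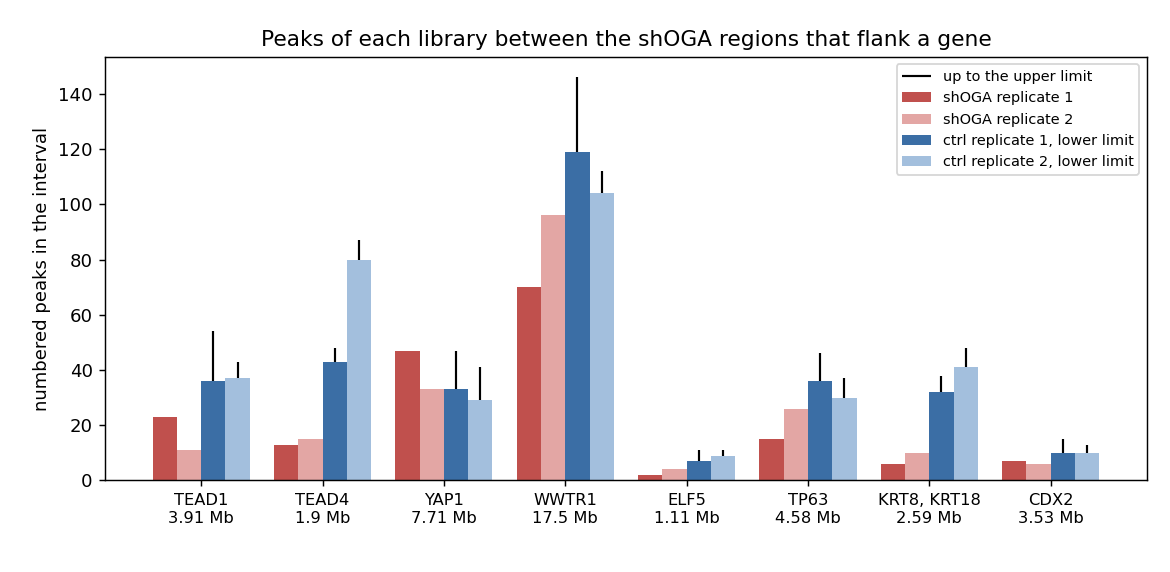
Numbered peaks (vertical axis) of each library in the interval between the shOGA regions that flank a gene, for 9 of the 10 genes; interval lengths stand under the names, bars for ctrl give the lower limit and lines reach the upper limit. In the TEAD4 interval the shOGA replicates have 13 and 15 peaks and the ctrl replicates at least 43 and 80, whereas at YAP1 the shOGA counts of 47 and 33 overlap the ctrl ranges of 33 to 47 and 29 to 41. The intervals were set by the shOGA list, which can favour low shOGA counts.

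TEAD1, a related factor with a broad tissue range, had 1 assigned region in control, in intron 2 of 12 on chromosome 11 at 12686576 to 12688878 (2303 bp), 12155 bp from its start. It was wider than the list median and had no knockdown region within 173740 bp. A second pair of regions lay inside TEAD1 but was assigned by nearest start site to the uncharacterised gene LOC107984313. The shOGA region of this pair, in intron 4, covered 12862618 to 12863243 (626 bp). The ctrl region, annotated to exon 5 of 13, covered 12864190 to 12865131 (942 bp). They did not overlap and stood 947 bp apart. By position, then, TEAD1 was the 1 gene of the 10 with a knockdown region in its span, a count made after its value was seen. In the 3.91 Mb between the shOGA regions outside the gene, the shOGA replicates had 23 and 11 peaks and the ctrl replicates 36 to 54 and 37 to 43.

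WWTR1, the coactivator also known as TAZ, had 2 control regions on chromosome 3. One lay at 149573891 to 149575652 (1762 bp) in intron 2 of 6, 82373 bp from the start of transcript NM_001168280.3. The other lay at 149663662 to 149665530 (1869 bp) in an intron of the longer transcript XM_017006122.1, 5379 bp from its start. Both were close to the median in width, at 61.4% and 66.9% of the list. Between them, over 88.0 kb that hold the start of NM_001168280.3, ctrl replicates 1 and 2 skipped 3 and 4 peaks. No knockdown region lay within 6.50 Mb of either, in an interval of 17.5 Mb where the shOGA replicates had 70 and 96 peaks and the ctrl replicates 119 to 146 and 104 to 112.

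YAP1, the other coactivator, had no region in either list. Its gene lay between listed control regions at ARHGAP42 and DYNC2H1, 2.57 Mb apart, where ctrl replicates 1 and 2 had 14 and 10 peaks and none was shared. The flanking knockdown regions, at ARHGAP42 and C11orf65, were 7.71 Mb apart with 47 and 33 shOGA peaks. The ctrl replicates had 33 to 47 and 29 to 41 peaks in that interval. Unlike at TEAD4, the knockdown counts there were not below the control ranges, a difference that was not tested.

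Among the trophoblast transcription factors, CDX2 and GATA3 had no region in either list. CDX2, a homeodomain factor of mouse and human trophectoderm, lay on chromosome 13 between control regions at RASL11A and FLT3, 0.784 Mb apart, with 3 and 2 skipped peaks in ctrl replicates 1 and 2. The shOGA replicates had 7 and 6 peaks in 3.53 Mb around it, against 10 to 15 and 10 to 13 in ctrl. GATA3, a zinc-finger factor of trophectoderm and of T cells, lay on chromosome 10 in a stretch of 4.39 Mb between control regions, with 4 and 3 skipped peaks. In the knockdown list chromosome 10 had no region before EPC1, at 32384069, which lies beyond GATA3. In both stretches the ctrl replicates had 4 peaks at most.

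ELF5, an ETS factor of trophoblast stem cells whose mouse promoter is methylated in embryonic stem cells, had 1 control region. It lay in intron 3 of 5 on chromosome 11 at 34483248 to 34484986 (1739 bp), 26738 bp from the start, and joined 2 peaks of ctrl replicate 1 with 1 of replicate 2. The nearest knockdown region, at NAT10, was 377674 bp away. In the 1.11 Mb between flanking knockdown regions the shOGA replicates had 2 and 4 peaks and the ctrl replicates 7 to 11 and 9 to 11.

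TP63, a p53 relative that marks villous cytotrophoblast and the basal layer of epithelia, also had 1. It covered 189805905 to 189806993 of chromosome 3 (1089 bp) in intron 3 of 13, 16246 bp from the start of transcript NM_001329150.2, and was narrow (14.7% of the list). Over the 130 kb that follow it, up to the control region at MTAPP2, both ctrl replicates skipped 0 peaks. The shOGA replicates had 15 and 26 peaks in the 4.58 Mb around TP63, and the ctrl replicates 36 to 46 and 30 to 37.

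The keratins shared their single region. It lay on chromosome 12 at 52949591 to 52950194 (604 bp) and contained the outermost KRT8 start site, that of transcript NM_001256293.2 at 52949860. Only 0.512% of control regions were as narrow. The region was assigned to KRT8, but by the RefSeq table KRT18 overlaps that start, and the region falls inside the span of KRT18. Occupancy of one keratin gene or the other cannot be told apart here. In the 53.7 kb to the next region, at EIF4B, 0 and 1 peaks were skipped. No knockdown region lay within 428751 bp. In the 2.59 Mb between the knockdown regions at ATF1 and SP1, the shOGA replicates had 6 and 10 peaks and the ctrl replicates 32 to 38 and 41 to 48.

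Promoter sequence was available from RefSeq (GRCh38.p14) for 7 of the 10 genes in 13 windows, each the 250 bases before a start. TEAD1, TEAD4 and KRT18 had none. No region of either list overlapped any of the 13, against 1.07% of 35116 such windows in the shOGA list and 9.82% in the ctrl list; with 13 windows a count of 0 is near both shares. The only KRT8 window belonged to another start, away from the control region. The bases before the KRT8 start inside that region, at 52949860, were not analysed here and are not counted among the 13. The windows held 1 to 36 CpG pairs. Of these, 1 each of YAP1, WWTR1, CDX2 and ELF5 is shown, with 36 to 2 pairs, to set promoters of high and low CpG content and no OGA region side by side, with each CpG in capitals.
YAP1, chr11:102110197-102110446, plus strand: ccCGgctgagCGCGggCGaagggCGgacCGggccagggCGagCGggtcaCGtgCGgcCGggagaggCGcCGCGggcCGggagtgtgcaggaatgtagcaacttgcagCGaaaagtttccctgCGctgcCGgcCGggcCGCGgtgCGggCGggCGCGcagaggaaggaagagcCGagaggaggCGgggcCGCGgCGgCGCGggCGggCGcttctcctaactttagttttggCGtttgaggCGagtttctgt
WWTR1, chr3:149658026-149658275, minus strand: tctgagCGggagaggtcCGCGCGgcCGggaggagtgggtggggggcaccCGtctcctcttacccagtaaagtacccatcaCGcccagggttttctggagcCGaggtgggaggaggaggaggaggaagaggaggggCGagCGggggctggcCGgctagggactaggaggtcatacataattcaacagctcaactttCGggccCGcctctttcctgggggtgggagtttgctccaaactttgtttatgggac
CDX2, chr13:27969316-27969565, minus strand: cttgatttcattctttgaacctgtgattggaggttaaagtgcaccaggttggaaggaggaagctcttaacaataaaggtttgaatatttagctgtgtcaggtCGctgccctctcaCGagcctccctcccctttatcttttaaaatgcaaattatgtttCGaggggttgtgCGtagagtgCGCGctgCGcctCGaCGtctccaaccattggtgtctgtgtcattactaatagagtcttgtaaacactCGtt
ELF5, chr11:34511725-34511974, minus strand: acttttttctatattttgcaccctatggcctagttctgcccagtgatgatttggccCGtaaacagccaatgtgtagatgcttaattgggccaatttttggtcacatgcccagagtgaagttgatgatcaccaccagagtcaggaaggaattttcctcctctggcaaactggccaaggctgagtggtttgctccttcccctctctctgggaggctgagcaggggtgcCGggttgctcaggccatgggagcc

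The YAP1 window held 36 CpG pairs and 72.0% G and C, the WWTR1 window shown 13 and 62.0%, the CDX2 window 10 and 45.2%, and the ELF5 window 2 and 51.6%. Over all windows, occupancy went with CpG number but not steadily. In the shOGA list 0.117% of windows with 0 to 3 CpG, 2.52% with 12 to 15 and 0.686% with 24 or more had a region. In the ctrl list the shares were 1.3%, 22.0% and 9.94%. The WWTR1 window shown belonged to the class most often occupied, and YAP1 to the CpG-richest, so the absence at YAP1 lies in a class with a share near the average.

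**Figure D4:**
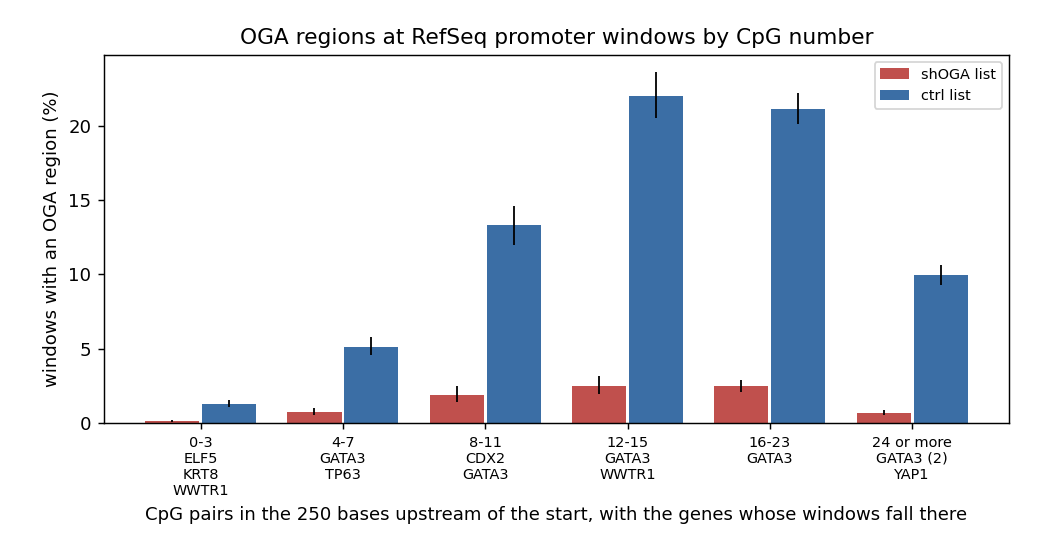
Share in percent of RefSeq promoter windows that overlap a region of the shOGA list (left bars) and of the ctrl list (right bars), by number of CpG pairs in the window, with Wilson 95% intervals for counting error; names under the axis are genes of the set, with the number of windows where above 1. The share peaks at 12 to 15 CpG pairs in both lists and is lower again at 24 or more.

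Motifs were searched on both strands in the same windows. GGAATG, the core bound by TEAD factors, was in the YAP1 window and in 1 of 6 GATA3 windows, against 11.9% of all windows. GGGCGG, the GC box, was in windows of YAP1 and GATA3 (42.6% of all), as was GCCNNNGGC, read by TFAP2 factors (19.8%). The octamer ATGCAAAT, read by POU factors such as OCT4, was in the CDX2 window and in 1.63% of all. The E-box CACGTG was in windows of YAP1 and GATA3 (6.34% of all), and AGATAA, read by GATA factors, was in that of CDX2 and in the WWTR1 window not shown, which held 1 CpG pair (9.17% of all). GC boxes can overlap the TFAP2 letters.

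Further genes of the pathway came from 6 lists with 99 genes in all. Of these 9 had a region in the shOGA list (9.09%) and 30 in the ctrl list (30.3%), beside 3.99% and 21.7% of all protein-coding genes. The lists were chosen with earlier results of these data known, so nothing is read from shares above the background. Among the junction and polarity regulators, 2 of 19 had a knockdown region and 11 of 19 a control region. In the kinase cassette and its upstream activators 1 of 16 and 5 of 16 had one. TEAD2, TEAD3 and the cofactors VGLL1, VGLL3 and VGLL4 gave 1 of 5 in each list, in both VGLL4. YAP and TEAD target genes gave 2 of 22 in knockdown and 4 of 22 in control, other trophectoderm transcription factors 2 of 16 and 4 of 16, and trophoblast effector genes 1 of 24 and 6 of 24.

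**Figure D5:**
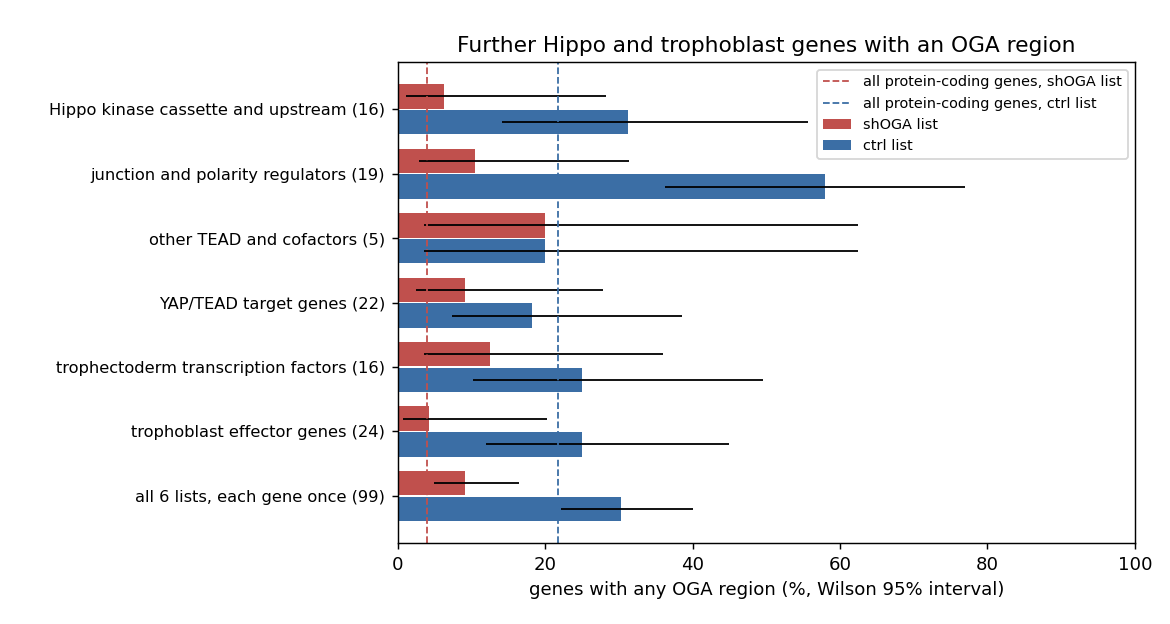
Percent of genes with any region in the shOGA list (upper bars) and in the ctrl list (lower bars) for 6 gene lists and their union, with Wilson 95% intervals for counting error; numbers in brackets are genes, and dashed lines mark the shares over all protein-coding genes (3.99% and 21.7%). The junction and polarity list has the highest control share (57.9%), and intervals are wide for all lists. The lists were chosen with earlier results of these data known.

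Several pathway genes with a knockdown region had it on a control region. Over the genome 901 control regions were overlapped by a region of the knockdown list, which holds 1334. The share of all knockdown regions that overlap a control region was not counted, so nothing is read from the genes named here. MOB1A, an adaptor of the LATS kinases, had a shOGA region 106 bp before its start (chromosome 2, 74178985 to 74179350, 366 bp), which overlapped 1 of its 2 control regions. PRKCZ, an atypical protein kinase C of the polarity complex, had one over a start site (chromosome 1, 2133255 to 2133731, 477 bp), within a control region of 2189 bp. CCDC80, a secreted matrix protein, and GCM1, the factor that drives syncytiotrophoblast formation, likewise had 1 control region overlapped.

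A further 3 genes had a knockdown region that met none of their control regions. Over the whole knockdown list, 931 of 1178 genes also had a control region, so genes without one were not particular to this set. The share of all knockdown regions that meet no control region was not counted, so nothing is read from these 3. VGLL4, a TEAD cofactor that competes with YAP1, had a shOGA region 404 bp after a start (chromosome 3, 11717958 to 11719041, 1084 bp) and 3 control regions elsewhere. CCN2, a secreted matricellular protein and the best known YAP target, had a shOGA region over its start site (chromosome 6, 131951324 to 131951765, 442 bp) and no control region. NR2F2, a nuclear receptor of trophoblast and mesenchyme, had a distant one, 61004 bp before its start (891 bp), and no control region.

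Over the whole control list only 931 of 6510 genes (14.3%) also had a knockdown region, so a gene in control alone was the usual case. Among pathway genes found in control alone, NF2, the membrane scaffold merlin that activates the kinases, had 3 promoter-class regions, the widest 2993 bp. WWC1 (1853 bp) and MAP4K4 (1437 bp), both upstream regulators of LATS, had 1 intronic region each. CDH1, the adhesion protein E-cadherin, had 2 regions, the widest 2360 bp, and PATJ, a scaffold of the Crumbs complex, had 1 of 2117 bp. Of the target genes, NUAK2 (1712 bp), AMOTL2 (1065 bp), itself a YAP inhibitor, and ARHGEF17 (981 bp) each had 1, all of the promoter class.

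TFAP2C, a factor of both naive cells and trophectoderm, had 4 control regions, none of the promoter class, the widest 2697 bp and 34714 bp from the start. ARID3A had 1 over its start (1125 bp), and KLF5 had 1 that lay 53633 bp upstream in an intron of PIBF1 (1192 bp). Of the effector genes S100P (1874 bp), the placental fusion gene ERVFRD-1 (1534 bp) and EGFR (1335 bp) had promoter-class regions over a start site. No region of these 3 was overlapped by a knockdown region, as for most control regions (10.0% of all were overlapped).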

How the data were processed

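OGA CUT&Tag was compared between 2 shOGA and 2 ctrl libraries, grouped by sample title. Per the submitters' processing notes the tools were SEACR 1.3, Bowtie2 2.3.4.3, edgeR, ChIPseeker 1.12.1 and DESeq2, with no roles named, and the build was GRCh38.p13. The sources used here give neither the antibody control nor the peak threshold. The deposited lists give positions, widths and distances in bp, per the file headers, and no read counts, so the planned edgeR test was not run. A line that the ctrl list repeats was used once.

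Regions were matched to genes by the authors' gene name, overlaps needed 1 bp, and shares carry Wilson 95% intervals. Names were matched to RefSeq (GRCh38.p14: 1130 of 1178 shOGA and 6240 of 6510 ctrl names), which also gave gene order and promoter windows. Limits for ctrl peaks in an interval come from the numbers of the listed regions just inside and just outside it. Members and lists were chosen with earlier results of these data known. Named list genes are those with a shOGA region and the 4 with the widest ctrl region; some are not reported here. Overlap and peak-number steps were tested on simulated data. The software was Python 3.11.15 with scipy 1.17.1, pandas 2.3.3, matplotlib 3.10.9 and numpy 2.4.6.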

Additional observations from a re-analysis of the deposited data

How the results depend on the processing

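No paired analysis was possible because each list joins both replicates and no result comes from a test; for the same reason no replicate could be left out, and the count tests were not run. With regions below the ctrl median width left out, 0 member genes had a ctrl promoter region and TEAD4 had 5 ctrl regions. Of the further lists, 0 genes then had a shOGA region and 15 a ctrl region. This cut of 1577 bp lies above the upper quartile of shOGA widths (930 bp), so a shOGA count near 0 was close to fixed. With as many of the widest ctrl regions as the shOGA list holds, 1 member gene had any ctrl region and 0 a promoter region, TEAD4 had 2, and 3 genes of the further lists had one. With promoters within 1 kb, 1 member gene had a ctrl promoter region. Counting regions inside the gene span whatever their assigned gene, a choice made after seeing the data, gave 1 member with a shOGA region (TEAD1). The number of member ctrl regions overlapped stayed 0 under every alternative run. With the nearest shOGA region 133838 bp away, the settings that changed overlap or width could give no other value. Those settings are therefore no sign of stability. Intervals cover counting error only, and unknown depth limits every statement on an absent region.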
